A study of Mus musculus with 8 samples.

Results

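Values were taken for 44 genes of cholesterol synthesis, oxysterol synthesis, sterol handling, fatty acid synthesis and liver X receptor (LXR) signaling in cultured mouse macrophages that lack or retain Nudt21. The genes were taken from a list of symbols, and all 44 were found among the 21080 genes that both tables measured. Nudt21 encodes the RNA-binding subunit of cleavage factor Im, which takes part in the choice of the polyadenylation site of mRNAs. The study asked how its loss changes the transcriptome of bone marrow-derived macrophages (BMDMs) with and without inflammatory stimulation, by bulk RNA-seq of 8 samples. WT samples came from LysM-Cre mice, and Nudt21-cKO samples from Nudt21 fl/fl LysM-Cre mice of the same C57BL/6 background and sex, so that both genotypes carried the myeloid Cre transgene. There were 2 WT and 2 Nudt21-cKO samples without stimulation (0 h) and 2 of each after overnight IFNγ priming and 4 h of LPS (4 h). Each sample pooled BMDMs grown with M-CSF from the femurs of 2 mice. The titles use the same sample numbers at 0 h and 4 h, so samples of the same number may come from the same mice. The main fits did not pair them. The animals' age was not given in the sources used here, and the labels name the stimulation for the 0 h samples too, which were taken as unstimulated from their titles.

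Cells make cholesterol from acetyl-CoA through the mevalonate pathway and adjust the supply at the level of transcription. When sterols in the endoplasmic reticulum run low, SCAP escorts the SREBP transcription factors to the Golgi, where they are cut and released to switch on genes of sterol and fatty acid synthesis, whereas INSIG proteins hold the complex back when sterols are plentiful. Oxysterols, which are oxidized cholesterol derivatives, restrain SREBP and activate the LXR nuclear receptors, which induce cholesterol efflux and lipid remodeling, and macrophages are known to rewire this circuit when they sense microbes and interferons.

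The targeted gene was low in both samples labelled Nudt21-cKO at each time. Nudt21 (chr8:94015496-94037031, GRCm38) had a scaled coverage, which is the mean number of reads over each base after the samples of a time were scaled to the same median, of 737 and 666 in the 2 WT samples at 0 h, and of 159 and 161 in Nudt21-cKO. At 4 h it had 666 and 596 in WT and 126 and 103 in Nudt21-cKO. The log2 fold change was −2.13 ± 0.10 (SE, limma, adjusted p = 0.0351) at 0 h and −2.47 ± 0.17 (limma, adjusted p = 0.0425) at 4 h. The summed coverage ranged from 14950347 to 17954882 over the samples. All 8 macrophage markers were detected, with a summed coverage of 120530 to 132928 at 0 h and 64070 to 75278 at 4 h. Of the other lineages, the 8 neutrophil markers, chiefly the calgranulin genes S100a8 and S100a9, also summed high, to 23949 to 26512 in WT and 27802 to 36847 in Nudt21-cKO at 0 h, and to 18010 to 22253 and 22710 to 25791 at 4 h. Their part in the results was not tested. Of the 8, the granule genes Ngp (2217 to 5797) and Ltf (506 to 2199) had high coverage in every sample, Camp (368 to 688), Elane (90.2 to 446) and Mpo (76.4 to 294) lower coverage, and Ly6g 7.37 at most. The 5 B cell markers, mostly Cd79b, summed to 126 to 143 in WT and 67.9 to 73.5 in Nudt21-cKO at 0 h, and to 11.0 at most at 4 h, and their part in the results was not tested either. The 5 fibroblast markers summed to 86.9 to 193 in WT and 155 to 222 in Nudt21-cKO at 0 h, and to 16.5 to 92.4 and 80.7 to 116 at 4 h. In the other lists the sum was 67.2 at most, and Adipoq, a marker of adipocytes, was at 0 in every sample. In such bulk samples, fewer cells of a type and less RNA per cell cannot be told apart.

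A gene was called changed when its fold change was above 1.5 at an unadjusted p under 0.05 in limma, the thresholds of the study. With 2 samples a group an exact permutation test cannot go below p = 0.333, so the p-values come from the spread that limma pools over all genes, and they measure the spread between these pools of cells. At 0 h, 6 of the 44 genes were called lower in Nudt21-cKO than in WT (Acat2, Nr1h3, Scd1, Scd2, Fads1 and Fads2) and 0 higher, where 6.97% of all tested genes were called lower and 7.24% higher. At 4 h, 13 genes were called lower (Hmgcs1, Pmvk, Idi1, Fdft1, Sqle, Cyp51, Tm7sf2, Msmo1, Sc5d, Dhcr7, Ch25h, Cyp27a1 and Scd2) and 2 higher (Soat1 and Lpl), against 9.83% lower and 10.4% higher among all genes. Scd2 alone was called at both times. Past the Benjamini-Hochberg threshold over all genes were 0 of the 44 genes at 0 h, where 1.08% of all genes passed, and 1 at 4 h, Cyp27a1, where 1.61% passed. An unadjusted p under 0.05 in limma was reached by 18 of the 44 genes at 0 h and 19 at 4 h, where 22.8% and 28.6% of all genes reached it. The median log2 fold change of the 44 genes was −0.28 at 0 h and −0.30 at 4 h, beside 0.01 and −0.03 over all genes.

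The deposited coverage itself, without scaling, put the median of all genes at 0.10 at 0 h and 0.31 at 4 h, so that 61.6% and 83.3% of all called genes were higher in Nudt21-cKO, against 51% and 51.3% after scaling. On that scale 4 of the 44 genes were called lower and 2 higher at 0 h (5.61% and 8.99% of all genes), and 7 lower and 3 higher at 4 h (4.17% and 20.8% of all genes). Calls that held under all 4 scalings tried were the lower Acat2, Scd1, Scd2 and Fads2 at 0 h, and at 4 h the lower Idi1, Fdft1, Sqle, Cyp51, Sc5d, Cyp27a1 and Scd2 and the higher Soat1. Without the filter on low coverage, the 4 h calls of Cyp51, Tm7sf2, Msmo1 and Ch25h were lost. Set against the all-gene median of its own scale, the list's median at 4 h was −0.27 on both. That value could not differ, since the scaling moves the log2 fold change of every gene by nearly the same amount, so it is not a check.

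**Figure D1:**
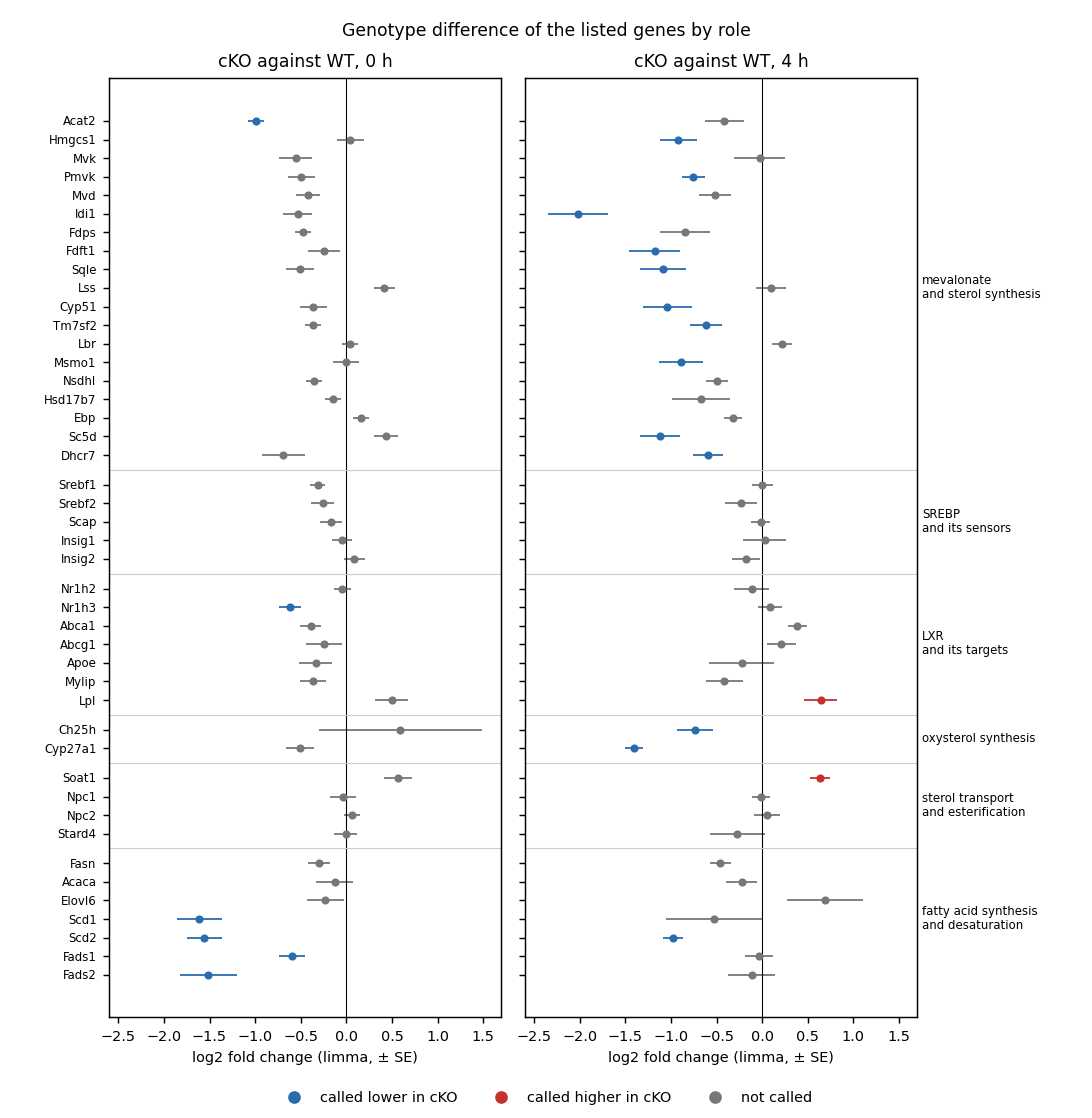
Log2 fold change of Nudt21-cKO against WT (x axis, limma, ± SE) for each of the 44 genes (y axis, grouped by role) at 0 h (left) and 4 h (right), from 2 samples a group. Blue points were called lower, red points higher and grey points were not called: 4 of the 6 blue points at 0 h are fatty acid genes, and 10 of the 13 at 4 h are sterol synthesis genes.

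Of the 19 genes of sterol synthesis, 10 were called lower in Nudt21-cKO at 4 h and 0 higher, where 9.83% and 10.4% of all genes were, with a median log2 fold change of −0.67, and at 0 h 1 was called lower, Acat2, where 6.97% of all genes were, with a median of −0.36. On the deposited scale 5 were called lower at 4 h, where 4.17% of all genes were, and the median was −0.34 beside 0.31 over all genes. Both Nudt21-cKO samples lay below both WT samples for 16 of the 19 genes at 4 h and above for 1, Lbr, where 33.6% and 29.6% of all genes did so. At 0 h the counts were 13 below and 3 above (Lss, Ebp and Sc5d), where 28.1% and 29.4% of all genes did so.

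Promoter windows of these genes were read for letters that sterol-responsive promoters are known to carry. RefSeq promoter windows (GRCm38.p6, 250 bases before to 50 after the start) were matched for 34 of the 44 genes. The NF-Y box CCAAT, read on both strands, was in a window of 15 of the 16 matched sterol synthesis genes, of 24 of the 34 matched genes of the whole list and of 41.1% of all genes with a window. It was in 8 of 8 matched sterol synthesis genes that were called lower at 4 h and in 7 of the 8 that were not, so that it did not separate them. The sterol element, searched as TCACNCCAC, was in 1 of the 34, Hmgcs1, and in 1.44% of all genes. The E-box CACGTG was in 6 of the 34 (Abca1, Dhcr7, Hsd17b7, Insig1, Sc5d and Scap) and in 8.09% of all genes, and an exact direct repeat of AGGTCA with 4 bases between in 0 of the 34 and in 0.0148% of all genes. A match is a description and not a site or a cause, and the absence of a match says only that these letters are not in the window. The lines below show, for these 8 genes called lower, the CCAAT nearest to a RefSeq start in capitals, written ATTGG where it lies on the opposite strand, and for Hmgcs1 also the sterol element, each 5′ to 3′ on the strand of the gene.
Hmgcs1, sterol element: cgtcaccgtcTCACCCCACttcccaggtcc
Hmgcs1, CCAAT: ctgagtcccgggATTGGcagaggtagccgc
Pmvk: aactcaggttggCCAATtcacagcatctag
Idi1: gtccaaggtgccATTGGctggcgaccgaca
Cyp51: cgctgtccgccaCCAATctggtcctgagat
Tm7sf2: ctcccagcgctgATTGGctactgtgctggg
Msmo1: gagtggggcggaCCAATtacgacaggcgag
Sc5d: cgccggctgctgATTGGccggctgcctgca
Dhcr7: aatccacttccgATTGGtcgtctgtgacct
Distances run from the first capital to the RefSeq start of the window, which can differ from the gene start given elsewhere from GENCODE. In Hmgcs1 (RefSeq start 119690351) the sterol element (chr13:119690204-119690233, plus strand) lies 137 bases before the start and the CCAAT (chr13:119690349-119690378) 10 bases after it. The CCAAT lies 136 bases before the start in Pmvk (chr3:89454393-89454422, plus strand, start 89454541) and 14 in Idi1 (chr13:8885580-8885609, plus strand, start 8885606). It lies 29 bases before it in Cyp51 (chr5:4104709-4104738, minus strand, start 4104697) and 47 in Tm7sf2 (chr19:6067880-6067909, minus strand, start 6067850). The distance is 55 bases in Msmo1 (chr8:64733616-64733645, minus strand, start 64733578), 24 in Sc5d (chr9:42264307-42264336, minus strand, start 42264300) and 49 in Dhcr7 (chr7:143830153-143830182, plus strand, start 143830214). By the GENCODE positions, the starts of Dhcr7, Idi1, Cyp51, Tm7sf2 and Msmo1 and their printed CCAAT windows are internal to the gene.

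In the early, mevalonate part of the pathway, the widest difference at 4 h was in Idi1 (chr13:8885501-8892451), the isomerase that interconverts the 5-carbon isoprenoid units. In WT it had a scaled coverage of 979 and 634, and in Nudt21-cKO one of 227 and 165, a mean of 806 ± 244 (SD, n = 2) against 196 ± 44.0 (SD, n = 2). The WT samples differed from each other more than the Nudt21-cKO samples did, yet the lower WT value was still above both. The difference was 4.06-fold (log2 fold change −2.02 ± 0.33 SE, adjusted p = 0.0923 in limma). Hmgcs1 (chr13:119690379-119708260), the synthase that makes HMG-CoA, had 1974 and 1473 in WT against 945 and 860 in Nudt21-cKO. It was 1.89-fold lower (log2 fold change −0.92 ± 0.20, adjusted p = 0.118 in limma), whereas at 0 h its groups overlapped. Pmvk (chr3:89454541-89469013), which adds the phosphate that follows on mevalonate kinase, had 203 and 181 in WT against 117 and 110 in Nudt21-cKO and was 1.69-fold lower. Mvk, Mvd and Fdps of the same branch were not called at either time. Acat2 (chr17:12942890-12960747), the cytosolic thiolase that condenses acetyl-CoA, was the one gene of the pathway called at 0 h, where WT samples had 153 and 151 and Nudt21-cKO samples 74.9 and 77.7. This 1.99-fold difference (log2 fold change −0.99 ± 0.08, adjusted p = 0.0684 in limma) was far wider than the spread within either pair. At 4 h Acat2 was not called, at −0.42 ± 0.21. Acat2 shares 1477 bases at 97.7% identity with Acat3, and Idi1 shares 684 bases at 100% with Gm13502, so that reads could be split between such copies.

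Of the squalene and lanosterol steps, those of Fdft1, Sqle and Cyp51 were called lower at 4 h too, and that of Lss was not. Fdft1 (chr14:63145150-63179578), squalene synthase, had 629 and 422 in WT and 206 and 251 in Nudt21-cKO, a 2.27-fold difference. Sqle (chr15:59315077-59331192), squalene epoxidase, had 392 and 262 against 150 and 152 and was 2.12-fold lower. Cyp51 (chr5:4081145-4104746), which removes the 14α-methyl group of lanosterol, had 1306 and 857 against 540 and 490 and was 2.06-fold lower. In each of these, WT replicate 1 was the higher of its pair and the Nudt21-cKO pair lay close together below. Their adjusted p-values in limma were 0.125, 0.124 and 0.138. Exons of Fdft1 overlap 774 bases of Ctsb and those of Cyp51 166 bases of Akap9 on the opposite strand, as those of Hmgcs1 do 557 bases of Gm48342 and those of Idi1 323 bases of Gm48574, and reads of such pairs cannot be told apart without strand. Lss, which closes the sterol ring, was not called in either genotype comparison, and at 4 h it was at 0.10 ± 0.16 with overlapping groups.

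The later, postlanosterol steps contributed 4 further genes called lower at 4 h. Msmo1 (chr8:64718139-64733792), the C4-methyl sterol oxidase, had 1161 and 797 in WT against 529 and 509 in Nudt21-cKO and was 1.85-fold lower, while at 0 h its groups overlapped. Sc5d (chr9:42251595-42264256), the sterol C5-desaturase, had 1004 and 734 against 424 and 368, which was 2.17-fold lower (log2 fold change −1.12 ± 0.22, adjusted p = 0.107 in limma). At 0 h the order of Sc5d was the opposite, with 664 and 742 in WT and 1012 and 890 in Nudt21-cKO, a log2 fold change of 0.44 ± 0.13 that did not reach the fold threshold. Tm7sf2 (chr19:6062821-6068373), a C14-sterol reductase, had 176 and 175 against 130 and 101 and was 1.53-fold lower, and it shares 532 exonic bases with Vps51 on its own strand. Dhcr7 (chr7:143823145-143848410), the last reductase on the way to cholesterol, had 105 and 110 against 80.1 and 63.4 and was 1.51-fold lower, just inside the threshold. Lbr, Nsdhl, Hsd17b7 and Ebp were not called.

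The WT samples at 4 h differed from each other along this pathway. After scaling, WT replicate 1 was above WT replicate 2 for 16 of the 19 genes, by a median of 0.42 on the log2 scale, while across all genes it was above for 58.4%, by a median of 0.07. The count depends on the scaling, whose factor within 4 h was 1.218 for WT replicate 1 and 1.037 for WT replicate 2. In deposited coverage the order was the opposite for Mvk, Pmvk, Mvd, Tm7sf2 and Ebp, and Lbr, Nsdhl and Dhcr7 were lower in WT replicate 1 on both scales. In the Nudt21-cKO pair at 4 h the first sample was above the second for 13 of 19 genes and for 47.1% of all genes, by a median of 0.06 and −0.0079. The log2 fold change of Idi1 ranged from −2.33 to −1.71 with 1 sample left out, and its call was lost without Nudt21-cKO replicate 4, as was that of Pmvk. The calls of Hmgcs1, Fdft1, Sqle, Cyp51, Msmo1 and Sc5d were lost without either Nudt21-cKO replicate (each left out alone), and those of Tm7sf2 and Dhcr7 without either WT replicate or Nudt21-cKO replicate 4. Of the 44 genes, 10 were called lower at 4 h without WT replicate 1 (9.36% of all genes in the same fit), 16 without WT replicate 2 (11.0%), 6 without Nudt21-cKO replicate 3 (7.75%) and 2 without Nudt21-cKO replicate 4 (6.52%). In the last of these Cyp27a1 and Scd2 were the genes still called, and no gene was called higher.

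**Figure D2:**
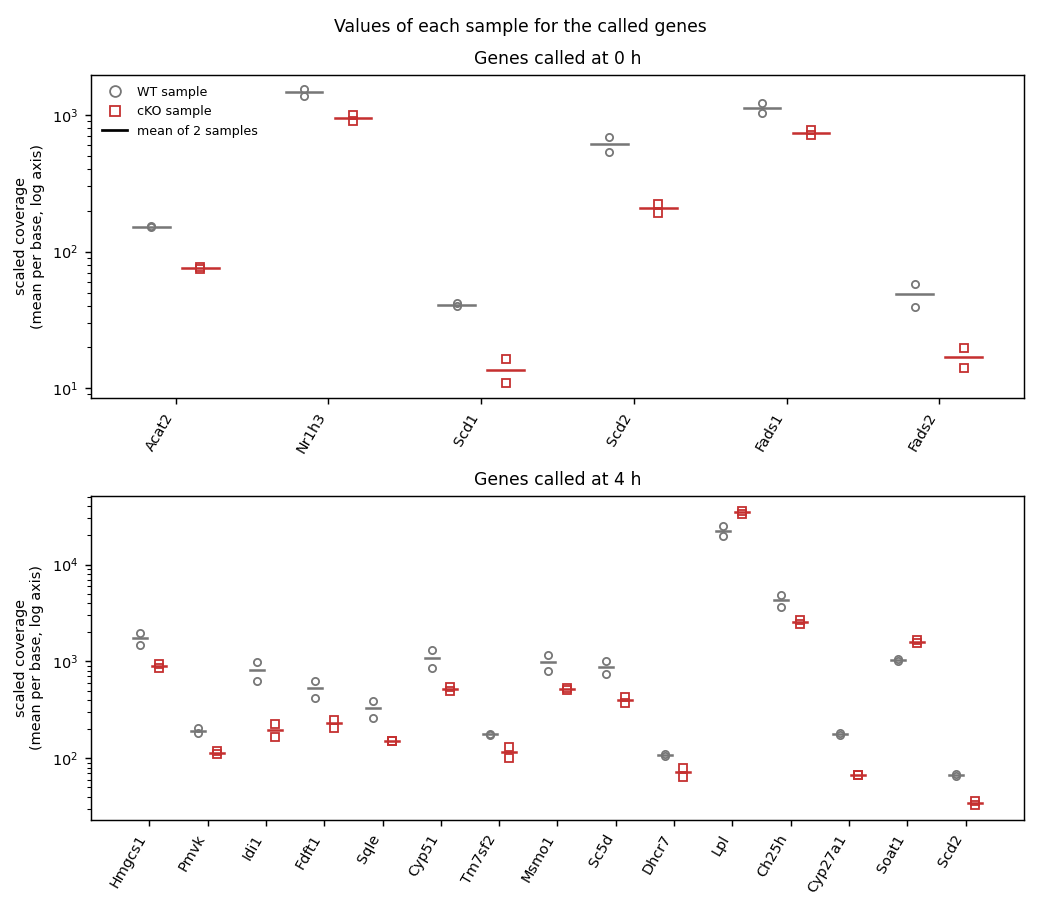
Scaled coverage (y axis, mean reads per base, log axis) of each sample for the genes called in the comparison of Nudt21-cKO (red squares) with WT (grey circles), at 0 h (top) and 4 h (bottom), with horizontal bars at the mean of the 2 samples. No red and grey points of a gene overlap, which the call that picked these genes makes likely. The WT samples of Idi1 (979 and 634) lie farther apart than those of Cyp27a1 (176 and 182).

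The genes that encode the SREBP factors and their sensors were not called in either genotype comparison. Srebf1, the source of SREBP-1, had 1046 and 1055 in WT and 846 and 846 in Nudt21-cKO at 0 h, a log2 fold change of −0.31 ± 0.08 with groups that did not overlap. At 4 h Srebf1 had 618 and 563 in WT and 572 and 611 in Nudt21-cKO, with overlapping groups and a log2 fold change of 0.00 ± 0.12. Srebf2, the source of SREBP-2, the main activator of sterol synthesis, was at −0.26 ± 0.13 at 0 h and −0.24 ± 0.17 at 4 h. At 4 h its samples had 2277 and 1774 in WT and 1692 and 1723 in Nudt21-cKO, so that the lower WT value lay just above the Nudt21-cKO pair. Scap was at −0.17 ± 0.12 and −0.02 ± 0.10, Insig1 at −0.05 ± 0.11 and 0.03 ± 0.23, and Insig2 at 0.08 ± 0.11 and −0.17 ± 0.15, at 0 h and 4 h. On the deposited scale the 4 h signs of Srebf2, Scap and Insig2 turned positive, at 0.10, 0.32 and 0.16.

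Of the 7 genes of LXR and its targets, 1 was called lower at 0 h, where 6.97% of all genes were, and 1 higher at 4 h, where 10.4% were. Nr1h3 (chr2:91184061-91202834), which encodes LXRα, had 1386 and 1545 in WT and 998 and 910 in Nudt21-cKO at 0 h. It was 1.54-fold lower there (log2 fold change −0.62 ± 0.12, adjusted p = 0.131 in limma), a call that was lost on the deposited scale and without WT replicate 2 or Nudt21-cKO replicate 4. At 4 h Nr1h3 had 385 and 361 against 424 and 370, with overlapping groups. Nr1h2, which encodes LXRβ, was at −0.04 ± 0.10 at 0 h and −0.12 ± 0.20 at 4 h. Lpl (chr8:68880491-68907448), the lipase that frees fatty acids from lipoproteins, was higher in both Nudt21-cKO samples at both times. It had 29548 and 36521 in WT and 50160 and 42716 in Nudt21-cKO at 0 h, where it was not called at 0.49 ± 0.18, but on the deposited scale it was called higher, at 0.59. At 4 h it had 19635 and 25144 against 35677 and 33584 and was called 1.56-fold higher (log2 fold change 0.64 ± 0.18, adjusted p = 0.149 in limma), a call that was lost with equal total coverage, with quantile normalization and without WT replicate 1 or either Nudt21-cKO replicate. Abca1, which exports cholesterol to apolipoprotein A-I, changed sides: it had 3503 and 4044 in WT and 2901 and 2838 in Nudt21-cKO at 0 h, and 578 and 603 against 790 and 752 at 4 h. It was called at neither time, at −0.39 ± 0.12 and 0.38 ± 0.10, but on the deposited scale it was called higher at 4 h, at 0.72. Abcg1, Apoe and Mylip were called at neither time.

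Both oxysterol-producing enzymes were called lower in Nudt21-cKO at 4 h, where 9.83% of all genes were, and on the deposited scale 1 of them, Cyp27a1, was (4.17% of all genes). Cyp27a1 (chr1:74713574-74737892), the mitochondrial sterol 27-hydroxylase, had 176 and 182 in WT and 67.1 and 67.5 in Nudt21-cKO at 4 h. The pairs were tight and far apart, and the gene was 2.66-fold lower (log2 fold change −1.41 ± 0.10, adjusted p = 0.0464 in limma). Its adjusted p ranged from 0.00535 to 0.317 over the alternatives, and was above 0.05 on the deposited scale, with equal total coverage and with any 1 sample left out. By fold and unadjusted p it was called in every setting tried, at −1.43 to −1.38 with 1 sample left out. At 0 h it had 1494 and 1215 against 994 and 906, a log2 fold change of −0.51 ± 0.16 that stayed under the fold threshold. Ch25h (chr19:34473778-34475164), the enzyme that makes 25-hydroxycholesterol, was barely detected at 0 h, with a coverage of 2.41 and 0.674 in WT and 3.26 and 1.21 in Nudt21-cKO. At 4 h it had 4889 and 3679 in WT and 2662 and 2437 in Nudt21-cKO and was 1.67-fold lower (log2 fold change −0.74 ± 0.20, adjusted p = 0.146 in limma). That call was lost on the deposited scale, without the filter on low coverage, with all 8 samples in the fit and without WT replicate 1 or either Nudt21-cKO replicate.

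Among the 4 genes of sterol transport and esterification, Soat1 was the one called, where 10.4% of all genes were called higher at 4 h. Soat1 (chr1:156424525-156474331) esterifies cholesterol for storage in lipid droplets. It had 1052 and 1003 in WT and 1543 and 1654 in Nudt21-cKO at 4 h and was 1.55-fold higher (log2 fold change 0.64 ± 0.11, adjusted p = 0.0956 in limma). At 0 h it had 6775 and 8329 against 11627 and 10680, at 0.57 ± 0.15, just under the fold threshold. On the deposited scale it was called higher at 0 h, at 0.66. Without Nudt21-cKO replicate 4 the call at 4 h was lost, and all Nudt21-cKO samples were above all WT samples of their time. Npc1 and Npc2, which move cholesterol out of lysosomes, and Stard4, a cytosolic sterol carrier, were not called at either time.

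Of the 6 genes called lower at 0 h, 4 were desaturases of fatty acids. Of the 7 genes of fatty acid synthesis and desaturation, these 4 were called lower in Nudt21-cKO at 0 h, where 6.97% of all genes were, and the median of the 7 was −0.60. The WT samples at 0 h differed here: replicate 1 was above replicate 2 for 0 of the 7 genes and for 44.9% of all genes. The median log2 difference was −0.30 for the 7 and −0.02 over all genes. Scd1 (chr19:44394455-44407879) and Scd2 (chr19:44293674-44306864) encode stearoyl-CoA desaturases, which make monounsaturated fatty acids. Scd1 had 40.0 and 42.0 in WT and 16.3 and 10.9 in Nudt21-cKO, a 3.06-fold difference (log2 fold change −1.61 ± 0.25, adjusted p = 0.114 in limma). Scd2, at a far higher per-base level, had 534 and 690 against 223 and 191 and was 2.94-fold lower (log2 fold change −1.56 ± 0.19, adjusted p = 0.0964 in limma). Both transcripts share a stretch of 623 bases at 95.5% identity, and reads from it could be assigned to either gene. Fads2 (chr19:10062765-10101746) and Fads1 (chr19:10182888-10196877), the desaturases of polyunsaturated fatty acids, are neighbors on the same chromosome. Fads2 had 39.3 and 58.3 against 14.1 and 19.8 and was 2.85-fold lower (log2 fold change −1.51 ± 0.32, adjusted p = 0.145 in limma). Fads1 had 1033 and 1222 against 711 and 776 and was 1.51-fold lower, a call that was lost on the deposited scale and without WT replicate 2 or either Nudt21-cKO replicate. The call of Scd1 was lost without either WT replicate, and that of Fads2 without WT replicate 2 or Nudt21-cKO replicate 3. In none of these genes did the groups overlap, which the call itself makes likely, and 28.1% of all genes had both Nudt21-cKO samples below both WT samples at 0 h. Without WT replicate 2 at 0 h, the 44 genes held 3 calls of lower and 1 of higher values, where 6.46% and 8.65% of all genes were called.

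At 4 h Scd2 was the one desaturase called lower, with 66.2 and 69.2 in WT and 35.9 and 33.0 in Nudt21-cKO, 1.97-fold (log2 fold change −0.97 ± 0.11, adjusted p = 0.0710 in limma). Scd1 had fallen to 4.65 and 2.08 in WT and 2.73 and 1.67 in Nudt21-cKO, where its groups overlapped at a coverage of a few reads per base. Fads1 had 125 and 152 against 131 and 138, and Fads2 had 16.0 and 11.7 against 11.0 and 14.4, again with overlapping groups. Fasn, the fatty acid synthase, Acaca, the carboxylase that supplies its malonyl-CoA, and Elovl6, a fatty acid elongase, were not called at either time.

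**Figure D3:**
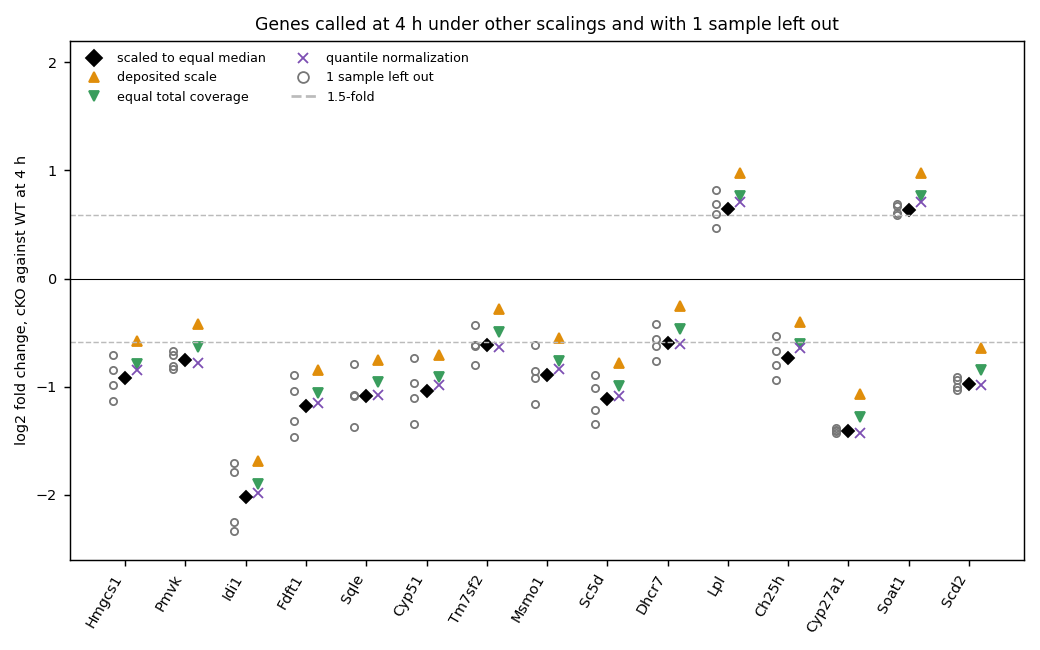
Log2 fold change of Nudt21-cKO against WT at 4 h (y axis) of the 15 called genes (x axis) with samples scaled to equal median (black), under 3 other scalings (colored symbols) and with 1 of the 4 samples left out (grey circles), with dashed lines at 1.5-fold. No point crosses 0: Cyp27a1 stays between −1.43 and −1.38 with a sample left out, and Idi1 between −2.33 and −1.71.

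An interaction term in a fit of the 8 samples tested whether the genotype difference itself changed with stimulation. None of the 44 genes passed an adjusted p of 0.05 in limma, whereas 2.27% of all genes did, and 11 had an unadjusted p under 0.05, where 21.7% of all genes had. Of these 11, Hmgcs1, Idi1, Fdft1, Msmo1, Ebp, Sc5d and Cyp27a1 had a more negative log2 fold change at 4 h, with interaction terms from −1.57 (Sc5d) to −0.50 (Ebp), and Abca1, Nr1h3, Fads1 and Fads2 a more positive one, with terms from 0.54 (Fads1) to 1.37 (Fads2). Sc5d came closest, at −1.57 ± 0.27 (adjusted p = 0.0605 in limma), and its adjusted p ranged from 0.0164 to 0.224 over the alternatives. In Sc5d, Ebp and Abca1, 3 of the 44 genes, both Nudt21-cKO samples lay on one side of the WT pair at 0 h and on the other at 4 h, where 10.3% of all genes did so. With other settings the 44 genes that passed were 0 positive and 1 negative on the deposited scale and with equal total coverage (3.05% and 2.51% of all genes), 1 and 1 without the filter on low coverage (3.47% of all genes), and 2 and 5 with an intensity trend (7.04% of all genes). The calls at 4 h and not at 0 h are therefore not shown to differ between the times.

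The response to stimulation within each genotype was the part of these data that depended most on the scale. With samples scaled to equal median, WT had 17 of the 44 genes called higher at 4 h than at 0 h and 11 called lower, where 33.4% and 22.5% of all genes were. The 17 became 8 without WT replicate 1 at 0 h and 9 without WT replicate 2 at 0 h, where 28.1% and 27.8% of all genes were called higher. In Nudt21-cKO 19 were called higher and 9 lower, where 32.6% and 23.3% of all genes were. On the deposited scale 2 were called higher and 26 lower in WT (11.9% and 55.1% of all genes), and 2 and 24 in Nudt21-cKO (13.7% and 53.2% of all genes), because the median of all genes was −1.28 and −1.05 there. An adjusted p under 0.05 in limma was reached by 25 genes in WT and 29 in Nudt21-cKO, where 51.0% and 60.2% of all genes did. Calls of rises that held under all 4 scalings were Ch25h and Idi1 in WT and Ch25h alone in Nudt21-cKO. Calls of falls that held under all 4 scalings in both genotypes were Lss, Dhcr7, Abcg1, Cyp27a1, Soat1, Npc1, Scd1, Scd2 and Fads1, and in WT also Abca1 and Nr1h3.

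Ch25h rose more than any other of the 44 genes. Its deposited coverage went from 2.35 and 0.649 to 4013 and 3548 in WT, and from 3.24 and 1.30 to 3001 and 2731 in Nudt21-cKO, with log2 fold changes of 12.82 ± 0.67 and 11.54 ± 0.55 (limma). These depend on a 0 h level near 1 read per base and on the pseudocount of 0.1. The deposited coverage of Idi1 went from 314 and 385 to 803 and 611 in WT, whereas in Nudt21-cKO it went from 258 and 255 to 256 and 185. Its log2 fold change was 2.46 ± 0.31 in WT and 0.97 ± 0.20 in Nudt21-cKO after scaling, and 1.01 and −0.23 on the deposited scale. After scaling Idi1 was thus called higher in both genotypes, and on the deposited scale in WT but not in Nudt21-cKO, while its interaction term of −1.51 ± 0.39 did not pass the correction (adjusted p = 0.118 in limma).

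The remaining genes with the widest changes in WT fell into a group that rose after scaling and a group of desaturases that fell on either scale. In WT and Nudt21-cKO, the scaled log2 fold changes were 1.94 and 1.26 for Cyp51, 1.74 and 1.47 for Pmvk, 1.69 and 0.75 for Fdft1 and 1.67 and 0.70 for Hmgcs1. Sc5d was called higher in WT at 1.62 and not called in Nudt21-cKO at 0.06. Among the regulators, Insig1 had 1.72 and 1.79 and Srebf2 1.65 and 1.67. On the deposited scale these genes lay between 0.17 (Sc5d) and 0.49 (Cyp51) in WT and between −1.14 (Sc5d) and 0.59 (Insig1) in Nudt21-cKO. Scd1 fell to −2.36 in WT and −1.29 in Nudt21-cKO, Scd2 to −1.83 and −1.26 and Fads1 to −1.69 and −1.14, and on the deposited scale to −3.79 and −2.47, −3.29 and −2.46, and −3.15 and −2.34. The call of Scd1 was lost in WT without either 0 h replicate, and in Nudt21-cKO without any 1 of the 4 samples and without the filter on low coverage. Those of Cyp51, Insig1 and Fdft1 in WT were lost without either 0 h replicate, those of Hmgcs1 and Sc5d in WT without replicate 1 at 0 h, and those of Idi1 and Fdft1 in Nudt21-cKO without either 0 h replicate. The differences between the genotypes in these responses are the interaction given above.

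**Figure D4:**
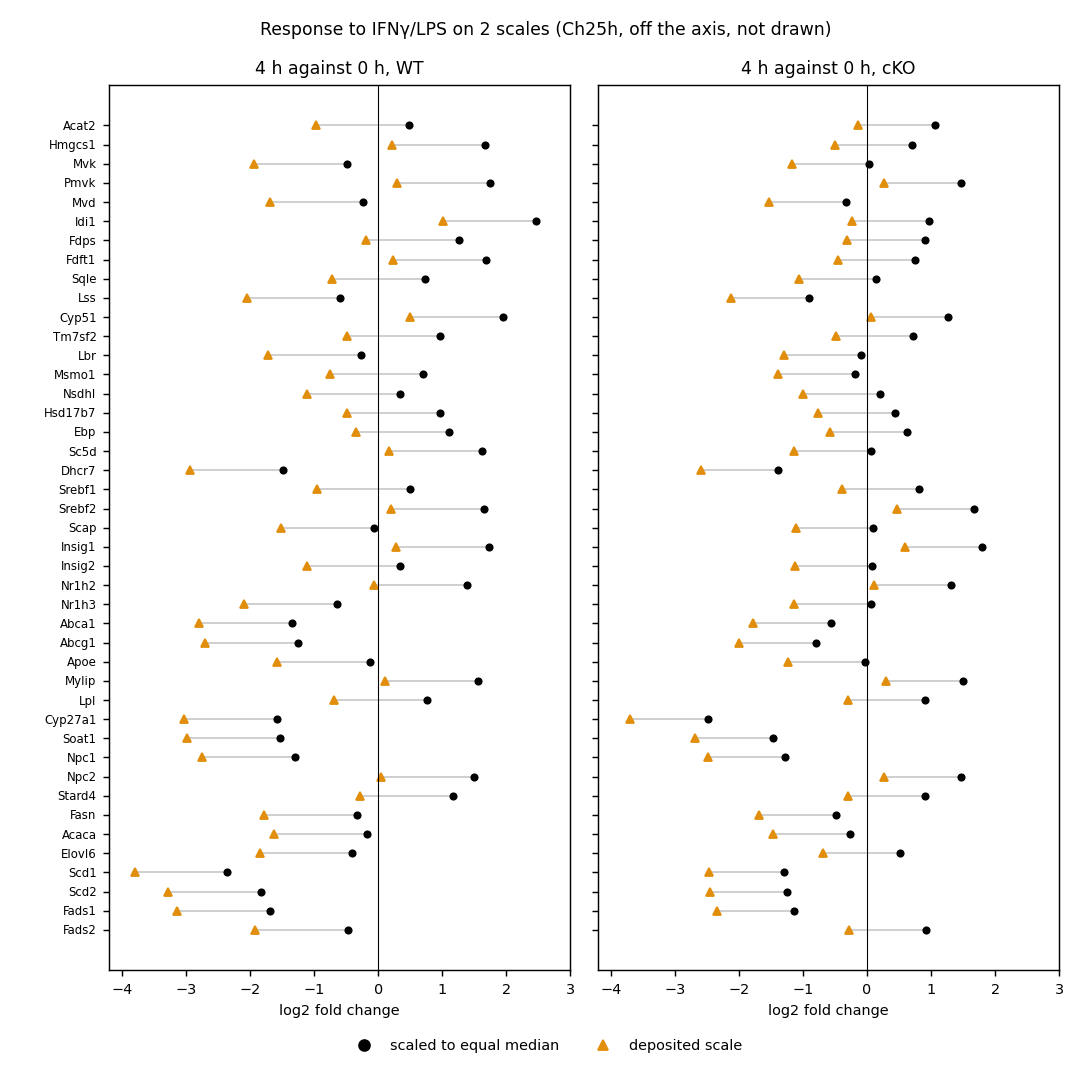
Log2 fold change of 4 h against 0 h (x axis) for 43 of the 44 genes (y axis) in WT (left) and Nudt21-cKO (right), with samples scaled to equal median (black) and on the deposited scale (orange). Every orange point lies to the left of its black point, and Idi1 is at 1.01 in WT and −0.23 in Nudt21-cKO on the deposited scale.

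Beyond the 44 genes, 46 others of the same pathways were listed. Of these, 2 were called higher and 6 lower in Nudt21-cKO at 0 h, and 5 higher and 5 lower at 4 h, with a median of −0.05 and −0.09. Over all genes 7.24% and 6.97% were called at 0 h and 10.4% and 9.83% at 4 h. On the deposited scale the counts were 3 higher and 4 lower at 0 h (8.99% and 5.61% of all genes) and 10 higher and 2 lower at 4 h (20.8% and 4.17%). The rises at 0 h were Elovl7, a fatty acid elongase, at 0.89 ± 0.27, and Mbtps2, the intramembrane protease that makes the second cut in SREBP, at 0.88 ± 0.09. The widest falls at 0 h were Elovl5, the elongase of polyunsaturated fatty acids, at −1.23 ± 0.10, Apoc1, an apolipoprotein, at −0.99 ± 0.27, and Hsd17b12, the ketoacyl reductase of fatty acid elongation, at −0.82 ± 0.13. At 4 h the widest rises were Lipa, lysosomal acid lipase, at 1.31 ± 0.13, Acss2, the cytosolic acetyl-CoA synthetase, at 1.30 ± 0.28, and Mbtps2 at 1.12 ± 0.11. Mbtps2 had 187 and 199 in WT and 405 and 433 in Nudt21-cKO at 4 h, and 566 and 593 against 1087 and 1042 at 0 h, so that both pairs stood well apart at both times. The widest falls at 4 h were Elovl5 at −1.36 ± 0.20, Hsd17b12 at −1.07 ± 0.14 and Arl4c, a small GTPase that LXR induces, at −0.75 ± 0.17. Leaving out 1 sample was followed only for the widest rises and falls named here, and not for the other called genes of the 46. Among those followed, calls lost were those of Elovl7 (0.60 to 1.18, lost without WT replicate 2 or either Nudt21-cKO replicate), Apoc1 (−1.30 to −0.69, without either Nudt21-cKO replicate) and Hsd17b12 (without Nudt21-cKO replicate 4) at 0 h. At 4 h they were those of Acss2 (0.99 to 1.61, without either WT replicate) and Arl4c (−0.92 to −0.57, without WT replicate 1 or either Nudt21-cKO replicate). The Elovl7 call was also lost with equal total coverage, without the filter and with an intensity trend, that of Apoc1 without the filter and with all 8 samples in the fit, and that of Arl4c on the deposited scale. On that scale the calls of lower Vldlr and Scarb1 at 0 h and of lower Scarb1 and Stard5 at 4 h were lost as well. None of the 46 passed an adjusted p of 0.05 in limma at either time, where 1.08% and 1.61% of all genes did. An unadjusted p under 0.05 was reached by 14 at 0 h and 15 at 4 h, beside 22.8% and 28.6% of all genes.

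As Nudt21 binds UGUA in RNA, the 3′ UTRs of the 44 genes were read for those letters on the transcript strand, in the annotated RefSeq-matched transcript with the longest coding sequence. At least 1 UGUA was in 37 of the 44 genes (84.1%), where 84.7% of all genes with such a transcript had one. The median was 6.5 matches in 1518 bases for the 44 genes, and 4 matches in 916 bases over all genes. Among the 13 genes called lower at 4 h, the median was 7 matches in 892 bases, from 0 in Tm7sf2 and Cyp27a1 to 20 in Hmgcs1. Both genes called higher at 4 h had long 3′ UTRs, with 36 matches in 6534 bases in Soat1 and 16 in 2428 bases in Lpl. So did Sc5d (18 in 3747) and Scd2 (13 in 3664), called lower, and Elovl6 (26 in 5005) and Stard4 (35 in 4231), not called. Over the 29 genes not called at 4 h the median was 6 matches in 1512 bases. These are counts of letters in the annotation. Which 3′ ends the samples used was not analysed here. The paper reports mostly shortened 3′ UTRs in Nudt21-cKO BMDMs, and mean coverage per base cannot tell a shortened 3′ UTR from less mRNA. The part of this in the calls was not tested.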

How the data were processed

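RNA of BMDMs was sequenced as paired-end libraries from 8 samples, and 2 tables, 1 for each time, were analysed. Per the study's methods, the authors aligned reads to mm10 (GRCm38) with HISAT2 2.2.1 and quantified RefSeq genes with StringTie 2.1.7. The deposited values are signal, the mean coverage per base of each gene in each sample, not scaled to depth. Such a mean also depends on which 3′ ends the transcripts use, so a lower value is not by itself less mRNA. Raw counts were not analysed here, so the counting error behind a value is unknown, and the number of samples limits the precision. Of 1098 values under 0.5, 42.3% times transcript length came out whole (within 0.02 bases). The columns of the authors' own comparisons (fold change, p-value, FDR, class) were not used, and 0 other per-sample columns were left out.

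Genes whose coverage averaged 0.5 or more over the samples fitted were tested with limma 3.58.1 (R 4.3.3) on log2(scaled coverage + 0.1), with each sample scaled to the same median. Only the groups compared entered a fit, and all 8 samples the interaction. P-values were adjusted by Benjamini-Hochberg over all genes tested. Fold changes are on the log2(value + pseudocount) scale. Printed levels were scaled within each time and not over all 8 samples as planned, since that scaling moves 4 h against 0 h. The fit was tested on simulated data. The 44 genes, the further 46, the marker lists and the tests were chosen with earlier results of these data known. Genes were named where called in a genotype comparison or where they encode a regulator, with the 12 widest called changes of WT with stimulation and the 3 widest called rises and falls of the further genes, and Abca1 and Ebp besides, after their values were seen. Gene positions, overlaps and 3′ UTRs came from the GENCODE annotation of GRCm38, copies from blastn 2.17.0 (at least 95% identity over 300 bases), and promoters from RefSeq. Alternatives were 3 other scalings, another pseudocount, 2 other filters, an intensity trend, 1 fit of all samples, a replicate block and leaving out each sample.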

Additional observations from a re-analysis of the deposited data

Results flagged for a closer look

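In 3 of the 44 genes both Nudt21-cKO samples lay on one side of the WT pair at 0 h and on the other side at 4 h, as in 10.3% of all genes. The difference between the 2 genotype effects (log2 fold change at 4 h minus that at 0 h, limma over all 8 samples) was −1.57 for Sc5d (adjusted p = 0.0605), −0.50 for Ebp (adjusted p = 0.0999) and 0.75 for Abca1 (adjusted p = 0.0758), none of which passed the correction. Sc5d passed on the deposited scale (0.0428), with equal total coverage (0.0434) and with an intensity trend (0.0164), and Ebp and Abca1 passed without the filter on low coverage (0.0347 and 0.0428) and with an intensity trend (0.0338 and 0.0204), adjusted p in limma. Sc5d went from 2 of 2 Nudt21-cKO samples above WT to 2 of 2 below, as did Ebp, the sterol isomerase, and Abca1 went from 2 of 2 below to 2 of 2 above. The sign of the Ebp effect at 4 h turned on the deposited scale, at 0.014.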

How the results depend on the processing

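The counts below are of the 44 genes, with the percentage of all genes called in the same fit in parentheses, and the cause of each change was not tested. Without scaling (deposited scale), 2 were called higher in Nudt21-cKO at 0 h (8.99) and 7 lower at 4 h (4.17), and with equal total coverage (13.0) or quantile normalization (10.2) 1 was called higher at 4 h. For stimulation, the deposited scale gave 2 higher (11.9) and 26 lower (55.1) in WT and 2 (13.7) and 24 (53.2) in Nudt21-cKO, equal total coverage 2 (12.2) and 26 (53.5) in WT and 1 (13.3) and 26 (53.9) in Nudt21-cKO, and quantile normalization 9 higher (22.2) in WT and 8 higher (22.1) and 16 lower (30.8) in Nudt21-cKO. For the interaction, 1 passed as negative on the deposited scale (0.761) and with equal total coverage (0.743), 1 each way without the filter (1.74 and 1.73), and 2 positive (2.76) and 5 negative (4.28) with an intensity trend. With quantile normalization, the list's median minus that of all genes turned to −0.0098 for stimulation in WT and 0.065 for the interaction. Over all 44 genes the sign differed between the 4 scalings for 5 at 0 h, 12 at 4 h, 14 with stimulation in WT and 21 in Nudt21-cKO. Single reversals are listed only for genes named in the text for a comparison. Among these, the log2 fold changes that reversed were small in the genotype comparisons. On the deposited scale they were Insig1 (0.046) and Nr1h2 (0.047) at 0 h, and Srebf2 (0.10), Scap (0.32), Insig2 (0.16), Nr1h2 (0.22) and Ebp (0.014) at 4 h. With equal total coverage they were Scap (0.11) and Nr1h2 (0.0087) at 4 h. Srebf1 reversed at 4 h without the filter (−0.011), with coverage of at least 1 (−0.028) and with all samples in the fit (−0.021), and Insig1 with coverage of at least 1 (−0.0039). Of the genes named for stimulation, Idi1, Fdft1, Hmgcs1 and Sc5d reversed in Nudt21-cKO on the deposited scale (−0.23, −0.45, −0.50 and −1.14) and with equal total coverage (−0.27, −0.49, −0.54 and −1.18), and Hmgcs1 and Sc5d with quantile normalization (−0.30 and −0.64). Others of the 44 reversed on the deposited scale too, such as Fdps, at −0.31 in Nudt21-cKO and −0.18 in WT.

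With 1 sample left out, 0 to 1 were called higher (5.77 to 8.65) and 3 to 7 lower (6.46 to 7.16) at 0 h, 0 to 2 higher (6.42 to 12.6) and 2 to 16 lower (6.52 to 11.0) at 4 h, 8 to 20 higher (27.8 to 30.9) and 9 to 11 lower (17.4 to 24.1) with stimulation in WT, 15 to 18 (29.7 to 30.8) and 7 to 9 (19.1 to 23.7) in Nudt21-cKO, and 0 to 2 passed as a negative interaction (0.527 to 1.83). The list's median minus that of all genes went from −0.034 to 0.18 for stimulation in Nudt21-cKO and from −0.11 to 0.084 for the interaction. Among the genes named in the text for a comparison, signs turned for Insig1 (−0.13 to 0.031), Insig2 (−0.015 to 0.18) and Nr1h2 (−0.105 to 0.013) at 0 h, for Srebf1 (−0.063 to 0.072), Scap (−0.053 to 0.021), Insig1 (−0.23 to 0.28), Nr1h2 (−0.32 to 0.094) and Nr1h3 (−0.011 to 0.19) at 4 h, and for Sc5d with stimulation in Nudt21-cKO (−0.051 to 0.15). Where a group was left with 1 sample, that sample was assumed to vary like the other group.

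Of 656 single-gene values under the other alternatives, 574 kept their direction and side of the threshold, 51 lost the call, 8 gained one and 23 reversed. Of 328 with a sample left out, 65 lost the call, 1 gained one and 13 reversed. Replicate numbers recur at both times, but samples with the same number did not deviate together (correlation 0.021 in WT and 0.023 in Nudt21-cKO, across 16284 genes). With a replicate block, 17 were called higher (31.6) and 9 lower (21.5) with stimulation in WT, 19 (32.1) and 9 (22.5) in Nudt21-cKO, and 0 passed as an interaction (0.123 positive and 0.0614 negative).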
